A study of Mus musculus with 5 samples.

Results

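The Zfp genes are the mouse genes whose symbol is Zfp followed by a number, the naming series for zinc finger proteins. All symbols of that form in the expression tables were taken, whatever their values, which gave 52 genes of the 4743 listed. RNA was sequenced from muscle of the forelimbs of E15.5 embryos of the C57BL/6 strain, with 3 samples labelled Noggin-deficient and 2 labelled as wild type controls, all of 1 strain, age and tissue and with no treatment named in the labels. Noggin is a secreted antagonist that binds bone morphogenetic proteins and holds them from their receptors. The sources used here do not give the kind of Nog allele, the parentage of the embryos or whether a sample was 1 embryo or a pool, so a p-value reflects no more than the sample-to-sample spread here, which could be technical. Nog itself was listed at 0.49, 0.42 and 0.42 in the Noggin-deficient and at 2 and 1.99 in the wild type samples.

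A zinc finger is a short protein fold held by a zinc ion between cysteine and histidine side chains. In the common C2H2 form, pairs of cysteines and histidines hold the ion, and tandem fingers read DNA, a few bases each. Many such proteins also carry a KRAB box at the N-terminus, which recruits the corepressor Trim28 and through it the histone methyltransferase Setdb1, and large clusters of these genes silence retroelements. Other genes of the naming series have different folds, such as the CCCH fingers of Zfp36, which bind AU-rich elements of mRNA and speed its decay.

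The coding sequences show how mixed the series is. The first motif found in each of 6 genes that the results turn on is given 5′ to 3′ on the coding strand, from GENCODE M21 transcripts (build GRCm38), with the codons of the zinc-binding cysteines and histidines in capitals. Zfp568, Zfp57, Zfp428 and Zfp768 have the C2H2 spacing, here over 21 codons, Zfp750 has a variant that ends in a cysteine, and Zfp36 has the CCCH spacing.
Zfp568, codons 365 to 385: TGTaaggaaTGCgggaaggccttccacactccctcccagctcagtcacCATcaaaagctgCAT
Zfp57, codons 142 to 162: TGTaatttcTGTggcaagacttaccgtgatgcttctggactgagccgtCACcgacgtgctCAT
Zfp428, codons 164 to 184: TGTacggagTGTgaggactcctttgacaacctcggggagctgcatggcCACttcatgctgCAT
Zfp768, codons 291 to 311: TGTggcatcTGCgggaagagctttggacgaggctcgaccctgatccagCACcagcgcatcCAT
Zfp750, codons 27 to 49: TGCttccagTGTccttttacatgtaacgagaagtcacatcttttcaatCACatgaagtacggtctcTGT
Zfp36, codons 101 to 120: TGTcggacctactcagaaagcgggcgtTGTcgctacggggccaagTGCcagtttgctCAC

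The C2H2 pattern (2 residues between the cysteines, 12 to the first histidine and 3 to 5 between the histidines) was found in 46 of the 52 genes, from 1 motif in Zfp428, Zfp511 and Zfp410 to 33 in Zfp619, with a median of 9.5 over all 52. The pattern misses fingers that depart from this spacing. The letters of a KRAB box were found in 26 of the genes with C2H2 motifs, wherever in the protein they stood. They are shown in full, all in capitals, for Zfp57 and Zfp568, the imprinting and embryonic repressors described further on.
Zfp57, codons 19 to 28: GACGTGGCAGTGTCTTTCACCCAGGAAGAA
Zfp568, codons 38 to 47: GATGTGGCTGTGGACCTCACACAGGAGGAA

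The authors normalized the deposited values without naming the unit, and whether they are per transcript length is not known. Between genes they are used to sort genes by level, to choose genes to name and for the sums below. Such sums are weighted toward genes of high value. The listed values summed to between 92210 and 102783 per library, of which the Zfp genes made up 0.267% to 0.279%. The number of reads behind a value is unknown. Nearly every listed gene separated the groups, with no overlap of their libraries for 98.2% of all listed genes and for 51 of the 52 Zfp genes, so the list appears to be a selection of differing genes. Skeletal muscle markers were present, 18 of 27 being listed, with summed values of 4827 to 5065 in the Noggin-deficient and 6966 to 7094 in the wild type libraries. Of the other cell types, 25 of 27 epidermis markers were listed, with sums of 1580 to 1646 in the Noggin-deficient and 3768 to 3770 in the wild type libraries. The 17 of 19 listed liver markers summed to 138 to 140 against 16.4 to 17.8, the 8 of 18 listed erythroid markers to 225 to 231 against 96.6 to 100, and the 13 of 17 listed Schwann cell and neuron markers to 58.1 to 59.8 against 47.1 to 47.2. No listed marker was at 0 in every library. The part of these tissues in the changes of the Zfp genes was not tested.

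Across the family, changes went both ways and were small. The test took 49 of the 52, those reaching 0.5 in 2 or more libraries. By limma's moderated test on log2(value + 0.25), with the Benjamini-Hochberg adjusted p under 0.05 over all 3913 tested genes, 17 Zfp genes rose with Noggin deficiency, 29 fell and 3 were not called. The calls cover 93.9% of the tested Zfp genes, beside 98.0% of all tested genes, of which 37.9% were higher and 60.1% lower. These shares describe such a list, and nothing particular to the Zfp genes is read from them. On a list that appears chosen for differences between these same samples, p-values and adjusted p-values do not control the rate of false calls. They are given here and below only to set a change beside the spread of its libraries. The log2 changes of the 17 ran from 0.30 to 0.58 and those with a negative sign from -0.23 to -1.12. The median over the 49 was -0.26, beside -0.28 over all tested genes. An absolute log2 change over 0.6 was found for 3 Zfp genes, or 6.12%, beside 28.6% of all tested genes. Tested against a 1.5-fold change, those 3 (Zfp474, Zfp750 and Zfp185) remained lower, beside 10.3% of all tested genes. By limma 0 were higher (0 at an unadjusted p under 0.05), beside 4.22% of all tested genes. Of the 3, Zfp474 had passed the filter only through its wild type libraries, so its fall lends no support.

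**Figure D1:**
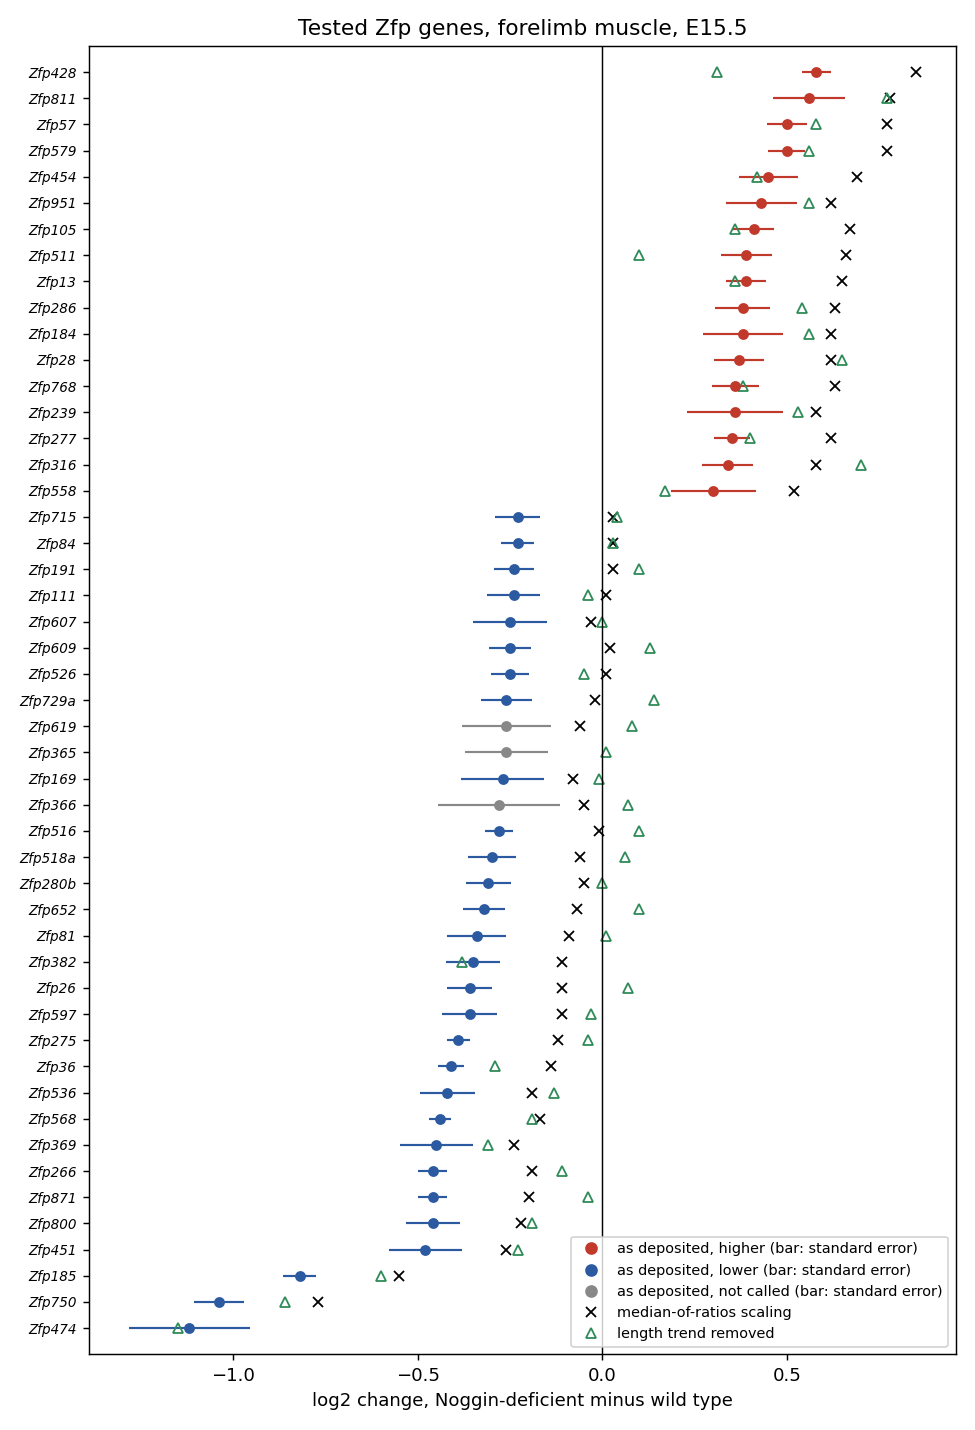
Log2 change (Noggin-deficient minus wild type, x axis) of the 49 tested Zfp genes (y axis, ordered by change), with points and standard error bars for the deposited scale, crosses for median-of-ratios scaling and triangles with length adjustment; Zfp474 and Zfp365 have no cross because they did not pass the filter under that scaling. The crosses lie to the right of the points for every gene that has one, by less for genes of low value, while the triangles move by an amount that depends on transcript length.

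How many falls were called depended on the scale, and which scale is right cannot be told from this list. Both alternatives below were fitted to the listed genes, which appear chosen for differences, so each recentres the changes of that list. A call lost under either is no evidence that a fall is absent. Median-of-ratios scaling moved changes upward, by less for genes of low value, and shifted the median log2 change of all tested genes by 0.26. Rises could therefore only grow and small falls shrink or turn, and what stays higher there is fixed by construction. Under it 17 of 47 tested Zfp genes were called higher (36.2%, beside 38.6% of all tested genes) and 9 lower (19.1%, beside 32.2%). Called either way were 55.3% of the Zfp genes, beside 70.8% of all genes. In length adjustment, a smooth curve of the change on transcript length was subtracted. With it 16 of 49 Zfp genes were called higher (32.7%, beside 33.8% of all tested genes) and 9 lower (18.4%, beside 35.8%). Called either way were 51.0% of the Zfp genes, beside 69.6% of all genes. The 15 genes called higher under the deposited scale and both alternatives were Zfp105, Zfp13, Zfp184, Zfp239, Zfp277, Zfp28, Zfp286, Zfp316, Zfp428, Zfp454, Zfp57, Zfp579, Zfp768, Zfp811 and Zfp951. The 6 called lower under all of these were Zfp185, Zfp266, Zfp36, Zfp568, Zfp750 and Zfp800. Length adjustment also moved most Zfp changes upward, so the larger number of kept rises is no sign that rises are steadier than falls.

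The 3 falls that held against a 1.5-fold change were those of Zfp750, Zfp185 and Zfp474. Values are given here and in what follows for Noggin-deficient replicates 1, 2 and 3, then for wild type replicates 1 and 2. Zfp750, a transcription factor of epidermal terminal differentiation, had 11.04, 11.75 and 9.83, then 22.66 and 22.46. All Noggin-deficient libraries lay below both wild type libraries. The means were 10.9 ± 0.971 (SD, n = 3) and 22.6 ± 0.141 (SD, n = 2), with Zfp750 changed by -1.04 on the log2 scale (SE 0.068, limma adjusted p = 6.6e-06). Zfp185, an actin-associated LIM domain protein, had 11.93, 11.52 and 10.87, then 20.73 and 19.95, again with no overlap. Its log2 change was -0.82 (SE 0.045, limma adjusted p = 2.9e-06). Against a 1.5-fold change the adjusted p was 0.0013 for Zfp750 and 0.0053 for Zfp185. Both fell beside the epidermis markers, of which all 23 tested were lower, with a median log2 change of -1.31. The share called lower over all tested genes was 60.1%. In bulk tissue, fewer cells of a type and less RNA per cell cannot be told apart, and the part of epidermis in these falls was not tested.

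Zfp474 was low in every library and passed the filter only through the wild type libraries, so that a fall was favoured in advance. It had 0.11, 0.21 and 0.11, then 0.51 and 0.70, with no overlap between the groups. Its log2 change of -1.12 (SE 0.164, limma adjusted p = 0.00036) depends on the pseudocount, being -1.78 at a pseudocount of 0.05. It did not pass the filter under median-of-ratios scaling, and against a 1.5-fold change its adjusted p was 0.045.

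Zfp568 and Zfp57, whose KRAB letters and fingers are printed above, moved in opposite directions. Zfp568, an embryonic repressor known for silencing a placental promoter of Igf2, had 18.01, 17.29 and 17.80, then 24.36 and 23.90. The Noggin-deficient values lay below both wild type values, with a log2 difference of -0.44 (SE 0.031, limma adjusted p = 9.9e-06). That change was -0.17 under median-of-ratios scaling and -0.19 with length adjustment, and was still called. Zfp57, which keeps methylation at imprinting control regions, had 13.64, 13.09 and 12.31, then 8.74 and 9.45. Its means of 13.0 ± 0.668 (SD, n = 3) and 9.09 ± 0.502 (SD, n = 2) put the log2 change at 0.50 (SE 0.054, limma adjusted p = 6.9e-05), which was 0.77 and 0.58 under the same alternatives. Of the 14 genes on the list for imprinting and retroelement silencing, these were the 2 with values. The corepressor Trim28 and Setdb1 were not analysed here. Of the 26 genes of the KRAB corepressor list only Atf7ip, a partner of Setdb1 named after its values were seen, was listed, at 12.47, 12.07 and 11.33, then 14.79 and 14.09. Its log2 change of -0.27 was 0.00 under median-of-ratios scaling and 0.12 with length adjustment.

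Zfp36, the tristetraprolin gene and the only CCCH mRNA decay factor with values of 4 on the list, fell. It had 10.50, 11.00 and 10.63, then 14.20 and 14.34. The groups did not overlap, and the log2 change was -0.41 (SE 0.035, limma adjusted p = 2.5e-05), with -0.14 under median-of-ratios scaling and -0.29 with length adjustment. Zfp36 shares exon sequence with Gm44710 on the other strand, and the deposited tables do not say whether reads were counted by strand.

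**Figure D2:**
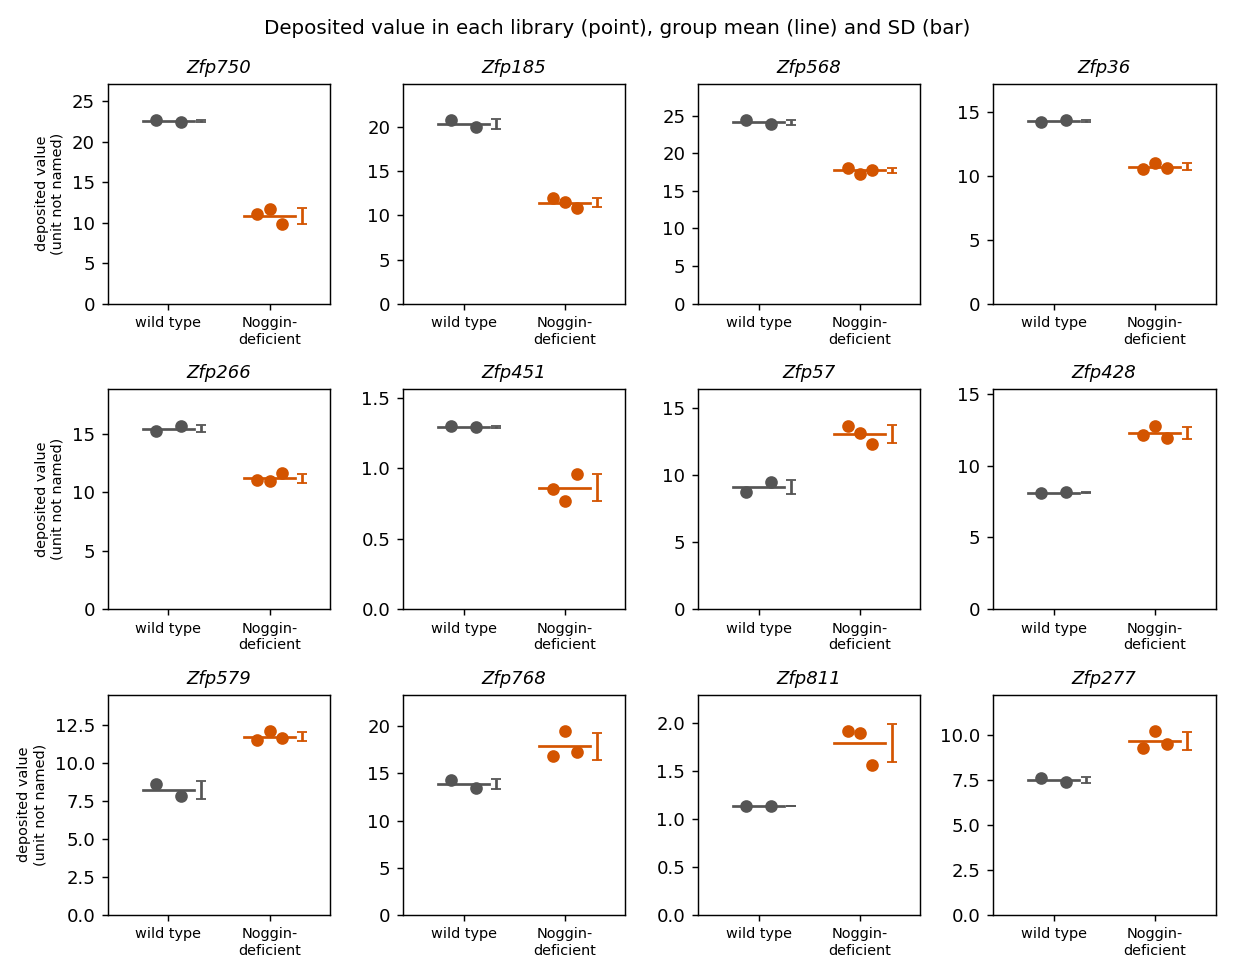
Deposited value (y axis, unit not named, starting at 0) of 12 Zfp genes in the 2 wild type and 3 Noggin-deficient libraries (points), with the group mean (line) and SD (bar). In each of the 12 panels the Noggin-deficient libraries lie wholly on one side of the wild type libraries, as for Zfp750 (9.83 to 11.75 against 22.46 to 22.66) and Zfp428 (11.93 to 12.76 against 8.11 to 8.13).

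The rises were led by Zfp428, a short gene product with 1 C2H2 motif in 189 codons. It had 12.15, 12.76 and 11.93, then 8.11 and 8.13, so that every Noggin-deficient library lay above both wild type libraries. The log2 change was 0.58 (SE 0.040, limma adjusted p = 8.4e-06), 0.85 under median-of-ratios scaling and 0.31 with length adjustment. Its transcript of 1159 bases is among the shortest of the family, and an exon overlaps AC161166.1 on the other strand. Zfp811, a KRAB gene with 13 motifs, had 1.91, 1.89 and 1.56, then 1.13 and 1.13, a log2 change of 0.56. Zfp579 had 11.48, 12.07 and 11.63, then 8.61 and 7.79, a log2 change of 0.50. For both genes the 2 groups were fully separate.

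The next rises were of similar size. Zfp454 rose by 0.45, Zfp105 by 0.41, Zfp13 and Zfp511 by 0.39 and Zfp286 and Zfp184 by 0.38 on the log2 scale. Zfp511 had 9.18, 10.29 and 9.53, then 7.81 and 6.82. Its rise was 0.10 with length adjustment (limma adjusted p = 0.21), and its exons overlap those of Tubgcp2 on the other strand. Zfp951 rose by 0.43 at values of 0.85, 0.88 and 0.92 against 0.55 and 0.64. Zfp28 rose by 0.37 and Zfp316, with a transcript of 6891 bases, by 0.34. Zfp28 shares 24.6% of its 31-base stretches with Gm3203, so its reads may have been split between these genes. Zfp239 and Zfp558 were the least steady of the rises. Zfp239 had 1.68, 1.45 and 1.58, then 0.98 and 1.39, and its log2 change of 0.36 was 0.15 without wild type replicate 1 (limma adjusted p = 0.23) and 0.56 without wild type replicate 2, and lost its call without Noggin-deficient replicate 1 (0.31) or 3 (0.35). Zfp558, at 0.30, lost its call without Noggin-deficient replicate 2 or 3 or wild type replicate 2.

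Of the 28 broadly acting transcription and chromatin factors on the list, 5 had values. There 2 were higher and 3 lower, beside 37.9% and 60.1% of all tested genes, with a median log2 change of -0.30. Zfp768, whose protein carries repeats like those of the RNA polymerase II tail, had 16.84, 19.47 and 17.27, then 14.27 and 13.47. It rose by 0.36 (limma adjusted p = 0.00095). Zfp277, a partner of Polycomb at the Cdkn2a locus, had 9.25, 10.20 and 9.51, then 7.61 and 7.39, and rose by 0.35. It shares 10.5% of its 31-base stretches with Gm9200. Zfp451, a SUMO ligase, had 0.85, 0.77 and 0.96, then 1.30 and 1.29, with a log2 change of -0.48 that was -0.26 under median-of-ratios scaling and -0.23 with length adjustment, where it was no longer called (limma adjusted p = 0.066). Zfp280b and Zfp518a had log2 changes of -0.31 and -0.30, which were -0.05 and -0.06 under median-of-ratios scaling and 0.00 and 0.06 with length adjustment, with no call under either.

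Of 13 genes on the patterning, neural and epithelial list, 5 had values: 4 were lower, Zfp750 and Zfp185 among them, and 1 was not called (median -0.42), beside 60.1% of all tested genes called lower. Zfp536, a repressor of neuronal differentiation, had 1.16, 1.11 and 1.14, then 1.59 and 1.62, a log2 change of -0.42 that missed the threshold under median-of-ratios scaling (-0.19, limma adjusted p = 0.053) and with length adjustment (-0.13, limma adjusted p = 0.16). Zfp609, a nuclear protein that works with the cohesin loader and Integrator in neural progenitors, had 7.61, 8.05 and 8.44, then 9.98 and 9.21. Its log2 change of -0.25 became 0.02 under median-of-ratios scaling and 0.13 with length adjustment, with no call. Zfp365, a gene known for its expression in brain, was at 0.36, 0.45 and 0.37, then 0.51 and 0.53. Its log2 change of -0.26 was not called (limma adjusted p = 0.051) although the libraries did not overlap. It too passed the filter only through the wild type libraries, which favoured a negative change. The pooled list of Schwann cell and neuron markers went both ways in the same libraries. There 8 of 11 tested were called higher and 3 lower, beside 37.9% and 60.1% of all tested genes. The log2 changes of that list ran from -0.56 to 2.7, with the Schwann cell gene Erbb3 at -0.54 and the neuronal gene Dbh at 2.19. The 2 cell types were not summarized apart.

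Of 12 genes on the muscle, mesenchyme, bone and fat list, 2 had values. Zfp516, an activator of the brown fat programme, had 8.23, 8.18 and 8.32, then 9.82 and 10.32, a log2 change of -0.28 (limma adjusted p = 0.00025). With median-of-ratios factors it was -0.01, and it became 0.10 with length adjustment (limma adjusted p = 0.046). Zfp184, the other, is a KRAB gene and rose by 0.38. Zfp423, Zfp521 and Zfp467, regulators of fat and bone progenitors, were not analysed here.

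Among further called falls, Zfp266 had 11.01, 10.94 and 11.62, then 15.22 and 15.68, a log2 change of -0.46 that was -0.19 under median-of-ratios scaling and -0.11 with length adjustment, and was still called. Zfp871, the only tested gene of 13 on the RNA binding and processing list, also fell by 0.46, from 8.80 and 8.90 to 6.33, 6.21 and 6.50, and was at -0.04 with length adjustment (limma adjusted p = 0.38). Zfp800 was at -0.46, Zfp369, a relative of the neurotrophin receptor interacting factor, at -0.45 and the X-linked Zfp275 at -0.39. Zfp369 shares 10.4% of its 31-base stretches with Zfp110, and it missed the threshold under median-of-ratios scaling (-0.24, limma adjusted p = 0.058). Zfp275 had 12.96, 12.59 and 12.60, then 16.64 and 16.80, and was at -0.04 with length adjustment (limma adjusted p = 0.31).

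The other 13 called falls lay between -0.36 and -0.23. They were those of Zfp597, Zfp26, Zfp382, Zfp81, Zfp652, Zfp169, Zfp729a, Zfp526, Zfp607, Zfp111, Zfp191, Zfp84 and Zfp715. Zfp191, needed for myelination of the central nervous system, had 5.37, 4.95 and 5.39, then 6.04 and 6.37. Zfp652, a partner of the corepressor Cbfa2t3, had 2.73, 2.65 and 2.82, then 3.47 and 3.49. Under median-of-ratios scaling none of these 13 was called. With length adjustment Zfp382, whose transcript is 2117 bases long, was the 1 still called lower (-0.38, limma adjusted p = 0.0022). Zfp729a shares 15.4% of its 31-base stretches with Zfp738. Zfp169 and Zfp607 lost their calls when single libraries were left out, Zfp169 without Noggin-deficient replicate 1 or either wild type replicate and Zfp607 without any of 4 libraries. Zfp111 lost its call without wild type replicate 1 and Zfp715 without wild type replicate 2.

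The 3 tested genes without a call were Zfp365, Zfp366 and Zfp619. Zfp366, known from dendritic cells, was the one Zfp gene whose libraries overlapped between the groups, at 0.96, 1.21 and 1.22, then 1.14 and 1.76. Its log2 change of -0.28 (limma adjusted p = 0.13) was -0.55 without wild type replicate 1, where it was called, and -0.02 without wild type replicate 2. Zfp619, with 33 motifs, was at 0.66, 0.51 and 0.66, then 0.84 and 0.72 (limma adjusted p = 0.066). The 3 genes left out by the filter were low in every library and lower in the Noggin-deficient ones. Zfp385c had 0.20, 0.23 and 0.19, then 0.36 and 0.40. Zfp410, an activator of Chd4, had 0.16, 0.13 and 0.13, then 0.21 and 0.22. Zfp950 had 0.40, 0.38 and 0.40, then 0.50 and 0.46.

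Transcript length went with the sign of the change. Lengths are those of the GENCODE M21 coding transcript with the longest coding part, found for all 49 tested Zfp genes and for 95.5% of all tested genes. The median was 2489 bases for the 17 genes with a positive change and 4477 bases for the 32 with a negative change. With all tested genes cut by length into 4 bins of about equal size, in the shortest bin, up to 1829 bases, all 3 Zfp genes had a positive change, beside 66.0% of all genes. In the next bin, up to 3047 bases, 8 of 12 were positive, beside 47.2%. From 3048 to 5016 bases 5 of 18 were positive, beside 28.0%, and above that 1 of 16, Zfp316, beside 8.79%. The Spearman correlation between log2 change and length was -0.45 over the 49 genes and -0.28 over the 3737 genes with a length. These are descriptions over genes that share 5 libraries. The Zfp transcripts, with a median of 4005 bases, were longer than the 3047 bases of all tested genes.

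**Figure D3:**
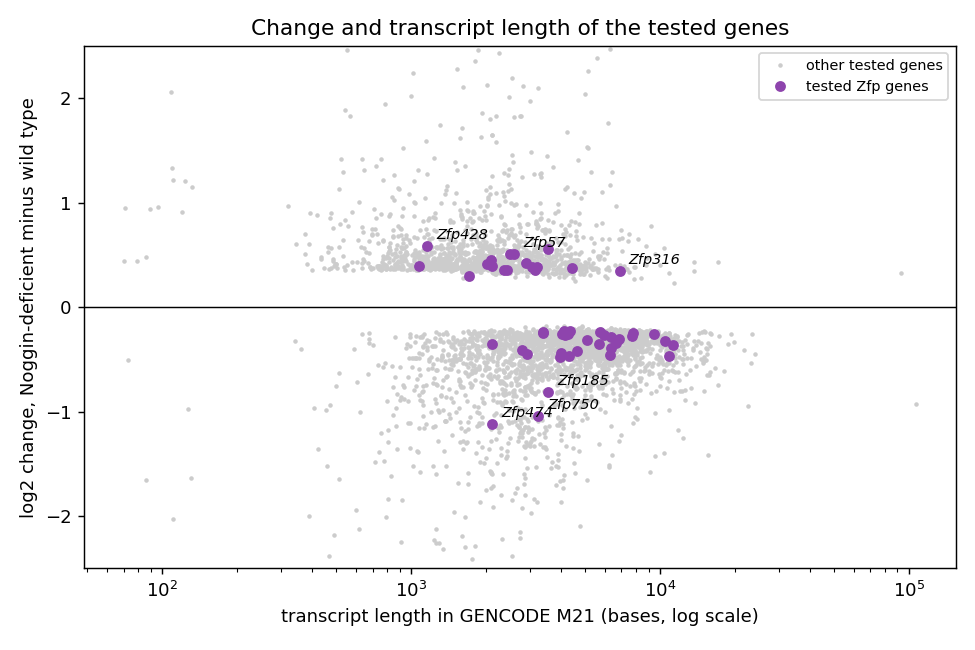
Log2 change (Noggin-deficient minus wild type, y axis) against GENCODE M21 transcript length (x axis, log scale) for the 49 tested Zfp genes (purple) and the other tested genes with a length (grey); 53 other genes beyond 2.5 log2 units are not drawn. Few listed genes lie near 0, and the Zfp genes with a positive change are mostly shorter (median 2489 bases) than those with a negative change (median 4477 bases).

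By level, over 4 such bins of the mean deposited value, 4 of 13, 5 of 15, 6 of 13 and 2 of 8 Zfp genes had a positive change, from the lowest to the highest bin, beside 47.2%, 35.4%, 31.6% and 37.8% of all tested genes. The Spearman correlation between change and mean value was -0.01 over the 49 genes and -0.08 over all tested genes.

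By finger type, the 6 genes with no C2H2 motif by the pattern (Zfp36, Zfp185, Zfp365, Zfp474, Zfp609 and Zfp750) held 0 rises, 5 falls and 1 gene without a call, with a median log2 change of -0.61. That median rests on the largest falls of the family, those of Zfp474 (-1.12), Zfp750 (-1.04) and Zfp185 (-0.82). Zfp474 and Zfp365 passed the filter only through the wild type libraries, which favoured a negative change. Neither gene therefore lends support to a difference of this group, although both enter its counts and medians. The other falls in the group were Zfp36 at -0.41 and Zfp609 at -0.25. The 43 tested genes with C2H2 motifs held 17 rises and 24 falls. Among these, the 25 with KRAB letters had 10 rises, 14 falls and a median of -0.24, and the 18 without had 7 rises, 10 falls and a median of -0.26. With length adjustment the medians were 0.07 with KRAB letters, 0.10 without and -0.45 for the genes with no C2H2 motif. The median number of motifs was 10 for genes with a positive and 9.5 for genes with a negative change. Over all tested genes 37.9% were called higher and 60.1% lower. No test of the difference between the groups by finger type was run.

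The Zfp genes were spread over many chromosomes, with 15 of the 52 on chromosome 7, where 5 were higher, 9 lower and 1 not called. Among all tested genes 37.9% were called higher and 60.1% lower. By the order of coding genes in RefSeq (GRCm38.p6), Zfp871 and Zfp811 on chromosome 17 are direct neighbours and had opposite calls, -0.46 and 0.56. Zfp26 and Zfp266 on chromosome 9, with 1 coding gene between them, were both lower, as were Zfp568 and Zfp382 on chromosome 7, with 4 between them.

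Promoter windows, from 250 bases before to 50 after a start, were found for 42 of the 52 genes in the RefSeq table (GRCm38.p6). They were rich in CpG, with a median of 18 beside 8 over all genes, and with 18 for higher and 19.5 for lower genes, taking the window with most CpG where a gene has several. The letters GGCGCC (the same on both strands), a GC-rich element bound by BMP-responsive SMADs, stood in the windows of 6 of the 42 genes, or 14.3%, beside 13.4% of all genes with a window. They stood in 6 of the 22 genes called lower and 0 of the 16 called higher, a split that was not tested. Of these 6 only Zfp800 kept its lower call with length adjustment, and Zfp280b, Zfp518a and Zfp526 lost theirs under median-of-ratios scaling. Of 4 other motifs searched on both strands, GGAAGT stood in 42.9% of the Zfp genes beside 26.5% of all genes, in 8 of the 16 higher and 10 of the 22 lower. CAGCTG stood in 16.7% beside 18.3% (2 higher and 4 lower), TATAAA in 16.7% beside 15.7% (3 higher and 3 lower), and GCCATNTTG in 0 of the 42 beside 2.9%. A match describes the letters in the window and not a bound site. For the 3 with the largest falls, a stretch before a start is shown with the element in capitals, in the direction of the gene. Zfp800 and Zfp871 each have 2 windows in the table, of which 1 holds the element.
Zfp275, chrX:73342565-73342619, + strand: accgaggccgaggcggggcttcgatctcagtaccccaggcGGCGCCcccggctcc
Zfp871, chr17:32788389-32788474, - strand: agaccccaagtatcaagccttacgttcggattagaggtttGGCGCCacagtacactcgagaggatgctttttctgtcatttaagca
Zfp800, chr6:28262064-28262149, - strand: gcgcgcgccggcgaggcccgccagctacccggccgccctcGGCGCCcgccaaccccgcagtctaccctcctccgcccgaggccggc

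Among zinc finger genes with other symbols (Zbtb, Zkscan, Zscan and Zc3h followed by a number), 24 of 27 listed genes were tested, of which 7 were higher and 16 lower, with a median log2 change of -0.37. Of the Zbtb genes, which join a BTB domain to C2H2 fingers, 2 of 18 were higher and 15 lower. Of the 49 Zfp genes 17 were higher and 29 lower, and of all tested genes 37.9% and 60.1%. The medians of the Zbtb and Zfp genes were -0.09 and 0.07 with length adjustment. The difference between these families was not tested.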

How the data were processed

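The 3 Noggin-deficient and 2 wild type RNA samples of embryonic forelimb muscle were taken as the groups. A stranded mRNA kit was used, per the labels' protocols. The authors deposited 1 normalized signal per gene and sample, as decimals in a unit not given in the sources used here. Their number of reads is unknown. STAR 2.4.2a, DESeq2 and the build mm9 appear in the submitters' processing notes, without roles. Since these values are not counts, limma 3.58.1 in R 4.3.3 was fitted with an intensity trend to log2(value + 0.25) of the 3913 of 4743 genes that reached 0.5 in 2 or more libraries, with no covariate. Log2 changes on this scale understate those of low genes. The script was tested on simulated data. Alternatives were other pseudocounts and filters, median-of-ratios factors from all listed genes, single libraries left out, a replicate block, a test against a 1.5-fold change and length adjustment. For the last, a loess curve of the change on log2 length (span 0.5) was subtracted from the Noggin-deficient values.

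The rule for named genes took the 10 largest rises and 10 largest falls among called Zfp genes with a mean of at least 1 and no overlap, the 4 with the highest wild type mean, and the tested members of the role lists, 27 in all. Other Zfp genes were added so that each is accounted for. The genes and lists were chosen with earlier results of these data known. RefSeq and GENCODE coordinates are on GRCm38, not on the submitters' build. Zfp191 and Zfp607 were matched as Zfp24 and Zfp607a. Overlaps with exons on the other strand were found for 11 Zfp genes.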

Additional observations from a re-analysis of the deposited data

How the results depend on the processing

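The number of Zfp genes called higher was 17. It was between 14 and 17 under the other settings of pseudocount and filter, median-of-ratios scaling, length adjustment and the replicate block. The 14 were of 38 tested, with a value of at least 1 required in all 5 libraries. The test against a 1.5-fold change left 0. With single Noggin-deficient libraries left out it was 15 to 16. The number called lower was 29, and between 24 and 32 under the other settings of pseudocount and filter and the replicate block. The 24 were of 38 tested under the stricter filter and the 32 of 52 tested with no filter. It was 27 to 29 with single Noggin-deficient libraries left out. It moved to 9 under median-of-ratios scaling, to 9 with length adjustment and to 3 against a 1.5-fold change. The median log2 change of -0.26 ran from -0.28 to -0.25 with single libraries left out, and moved to -0.01 under median-of-ratios scaling, to -0.20 at a pseudocount of 1 and to 0.07 with length adjustment. The cause of these moves was not tested. Leaving out a wild type library leaves 1, which is then assumed to vary like the others.

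Median-of-ratios scaling raised the median of all tested genes by 0.26, and genes of low value by less, so small falls shrink or turn by construction. The falls that turned were those of Zfp111 (0.01), Zfp191 (0.03), Zfp526 (0.01), Zfp609 (0.02), Zfp715 (0.03) and Zfp84 (0.03). Zfp607, a fall of similar size (-0.25), stayed negative at -0.03. With length adjustment signs turned for Zfp191 (0.10), Zfp26 (0.07), Zfp365 (0.01), Zfp366 (0.07), Zfp516 (0.10), Zfp518a (0.06), Zfp609 (0.13), Zfp619 (0.08), Zfp652 (0.10), Zfp715 (0.04), Zfp729a (0.14), Zfp81 (0.01) and Zfp84 (0.03). Of these only Zfp516 was called in the new direction.

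For samples with the same replicate number, deviations from the group means had r = -0.13 and -0.06 across genes for numbers 1 and 2. With only 2 wild type libraries, deviations from their mean are equal and opposite. Whether the numbers pair samples therefore cannot be told from these values. With the replicate block 16 Zfp genes were called higher and 30 lower (1468 and 2304 of all genes), Zfp558 and Zfp169 losing and Zfp366 and Zfp619 gaining a call. With a pseudocount of 0.05 Zfp169 lost its call, and with no filter Zfp365 gained one.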

Other observations

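GENCODE M21 annotates 394 coding genes with a symbol of this form. Of these, 55 were matched to a row of the tables, or 14.0%, beside 19.6% of all 21877 annotated coding genes. The 55 include Zfp979, Zfp972 and Zfp991, which the tables list under older clone-based or predicted-gene names (2610305D13Rik, C330013J21Rik and Gm13139) and which the symbol rule therefore did not take. The sources used here do not say how the listed genes were chosen, so these shares were not tested.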
